A study of Mus musculus with 10 samples.

Results

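The genes followed here are the 7 that write, keep and oxidise DNA methylation in this series: Dnmt1, Dnmt3a, Dnmt3b, Dnmt3l, Uhrf1, Tet1 and Tet2. They were chosen by symbol, with earlier results of these data known. All 7 were among the 24386 genes counted in every sample. The cells were TX1072, a female hybrid mouse embryonic stem cell (ESC) line from a Mus musculus castaneus (Cast) by C57BL/6 (B6) cross, labelled WT and grown on gelatin with serum, LIF and the 2i inhibitors PD0325901 and CHIR99021. The line carries a promoter through which doxycycline (DOX) turns on Xist, the RNA that silences an X chromosome, on the B6 X. New RNA was labelled with 4-thiouridine (4sU, 0.5 mM, 5 min) without DOX (0 h) or after 4, 8, 12 or 24 h with 1 µg/ml DOX, and read by transient transcriptome sequencing (TT-seq) in 10 samples, 2 for each time. All samples came from this 1 line, none of them given DOX in cells lacking the inducible Xist, so the effects of DOX, Xist RNA and longer culture cannot be told apart.

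DNA methylation in mammals sits mainly on cytosines followed by guanine (CpG). DNMT3A and DNMT3B place it on unmethylated DNA, helped by DNMT3L, which has no catalytic activity of its own. After replication UHRF1 recognises DNA that is methylated on the old strand alone and brings in DNMT1 to copy the mark. TET enzymes oxidise 5-methylcytosine to 5-hydroxymethylcytosine and further, which leads to its loss. Female ESCs with both X chromosomes active are known for low methylation, and the 2i inhibitors lower it further, so the supply of these enzymes is of interest while an X is being silenced.

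Of the start regions RefSeq gives for these genes, 4 are shown because CpG is the substrate of the enzymes and these windows hold the most and the fewest of it. Each is the 250 bases before the start site that matches the deposited start of the gene (GRCm38.p6), written 5′ to 3′ on the gene's strand, with every CpG in capitals. Tet2 lies at chr3:133544391-133544640 (minus strand), Dnmt3a at chr12:3806730-3806979 (plus), Dnmt3l at chr10:78042037-78042286 (plus) and Dnmt1 at chr9:20959889-20960138 (minus).
Tet2 upstream: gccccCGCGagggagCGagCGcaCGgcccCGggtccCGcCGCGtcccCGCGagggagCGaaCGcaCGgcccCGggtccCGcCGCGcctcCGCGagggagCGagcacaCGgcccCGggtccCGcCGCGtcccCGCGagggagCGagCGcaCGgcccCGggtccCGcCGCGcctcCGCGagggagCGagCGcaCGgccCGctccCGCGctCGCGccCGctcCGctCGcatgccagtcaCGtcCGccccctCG
Dnmt3a upstream: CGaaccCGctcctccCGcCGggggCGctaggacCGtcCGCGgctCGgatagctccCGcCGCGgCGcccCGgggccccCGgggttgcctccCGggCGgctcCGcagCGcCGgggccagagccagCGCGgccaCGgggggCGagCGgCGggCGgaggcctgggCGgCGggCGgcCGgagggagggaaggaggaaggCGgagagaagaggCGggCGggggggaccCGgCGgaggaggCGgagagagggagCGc
Dnmt3l upstream: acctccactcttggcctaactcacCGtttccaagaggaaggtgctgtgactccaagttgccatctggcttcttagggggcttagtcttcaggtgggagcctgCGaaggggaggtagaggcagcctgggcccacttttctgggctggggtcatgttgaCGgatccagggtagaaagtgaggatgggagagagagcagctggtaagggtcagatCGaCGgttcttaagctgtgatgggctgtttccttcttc
Dnmt1 upstream: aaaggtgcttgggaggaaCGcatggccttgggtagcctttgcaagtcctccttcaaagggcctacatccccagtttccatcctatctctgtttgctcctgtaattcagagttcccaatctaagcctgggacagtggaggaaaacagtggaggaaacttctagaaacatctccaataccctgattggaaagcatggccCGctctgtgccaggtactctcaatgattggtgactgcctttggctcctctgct

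Counted over 300 bases (250 before the start and 50 after), the Tet2 window held 57 CpG, and 0.152% of the 32851 RefSeq mouse windows of that length held as many or more. The run ccgcgagggagcgagcgcacggccc occurs 3 times in the printed Tet2 sequence. Dnmt3a had 46 CpG, Dnmt3b 30, Tet1 17, Uhrf1 12, Dnmt3l 6 and Dnmt1 2, against a median of 7 over all windows. The letters GGGCGG, searched on both strands and containing a CpG themselves, were present in 6 of the 7 windows (not in Dnmt1) and in 35.7% of all windows. Further start sites lie inside the counted spans of Dnmt1, Dnmt3a, Dnmt3l and Uhrf1. The innermost windows of these genes held 33, 18, 3 and 33 CpG in that order. For Tet1 the RefSeq start lies 7310 bases upstream of the deposited span, so RNA from that stretch was not counted.

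Total counts ran from 18809046 to 22274929 per sample. Xist, the check of the induction, had 32 and 31 read pairs at 0 h and 6348 to 14211 with DOX. Every sample thus matched its label as with or without DOX. The hours of DOX cannot be checked this way, since 8 h replicate 2 had 9395 read pairs and the 24 h samples 9493 and 9261. Markers of naive ESCs summed to 2590 to 2930 CPM (counts scaled to a common library size) in the 10 samples, with Esrrb at 973 to 1100 CPM and Nanog at 273 to 329 CPM. All 7 naive markers were counted at 40.8 CPM or more except Sox2, which was listed at 0. Fibroblast markers (feeder cells, 4 genes) summed to 2.97 to 5.89 CPM, with Col3a1 at 0 to 0.0457 CPM. Primitive endoderm markers (4 genes) summed to 2.51 to 3.98 CPM, trophectoderm markers (4) to 14.1 to 21.2 CPM and mesoderm markers (3) to 5.64 to 8.32 CPM. The trophectoderm sum was 20.8 and 21.2 CPM at 0 h and 14.1 and 14.6 CPM at 24 h, and its part in the results below was not tested. The 4 formative and primed markers include Dnmt3b itself, and Fgf5, an early marker of the primed state, stayed at 0.561 to 1.36 CPM.

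All 7 genes were transcribed in all 10 samples, and they differed widely in nascent RNA per length of gene. CPM here are counts scaled to library size with TMM factors, and levels per length are CPM per kb of the counted span, introns included. The order of mean levels was Uhrf1, Tet1, Tet2, Dnmt1, Dnmt3b, Dnmt3a and Dnmt3l. Uhrf1 had 9.99 ± 0.563 CPM per kb (SD, n = 10 samples over all times) and Dnmt3l 0.502 ± 0.0426 CPM per kb. Among 13960 genes with a mean count of at least 10, Uhrf1 lay above 96.1% of genes, Tet1 above 95.4% and Tet2 above 92.3%. Dnmt1 (3.94 ± 0.167 CPM per kb) lay above 85.0% and Dnmt3b (3.32 ± 0.286) above 81.4%, whereas Dnmt3a (0.715 ± 0.0465) lay above 41.3% and Dnmt3l above 34.9%.

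Neighbours at the top of the order were not fully separated. Uhrf1 was above Tet1 in 8 of 10 samples, and the ratio of the pair was 1.11 ± 0.102 (SD, n = 10), so these genes did not differ beyond their spread. Tet1 was above Tet2 in every sample (ratio 1.45 ± 0.138), although the lowest Tet1 level (7.61 CPM per kb) was below the highest Tet2 level (7.82). Dnmt1 was above Dnmt3b in every sample too (ratio 1.19 ± 0.0864), again with overlapping ranges. The gaps from Tet2 to Dnmt1, from Dnmt3b to Dnmt3a and from Dnmt3a to Dnmt3l had no overlap between samples.

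The low place of Dnmt3a depended on which start is assumed. Its deposited span (chr12:3806980-3914443, plus strand, 107.5 kb) begins at the upstream start, and RefSeq also gives a start at base 3891744, 22.7 kb from the gene's end. Spread over those 22.7 kb the same counts would be 3.38 ± 0.22 CPM per kb, beside 3.32 ± 0.286 for Dnmt3b. Likewise Dnmt3l would be at 1.29 ± 0.11 CPM per kb from its innermost start. Gene-level counts do not show which start was used.

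**Figure D1:**
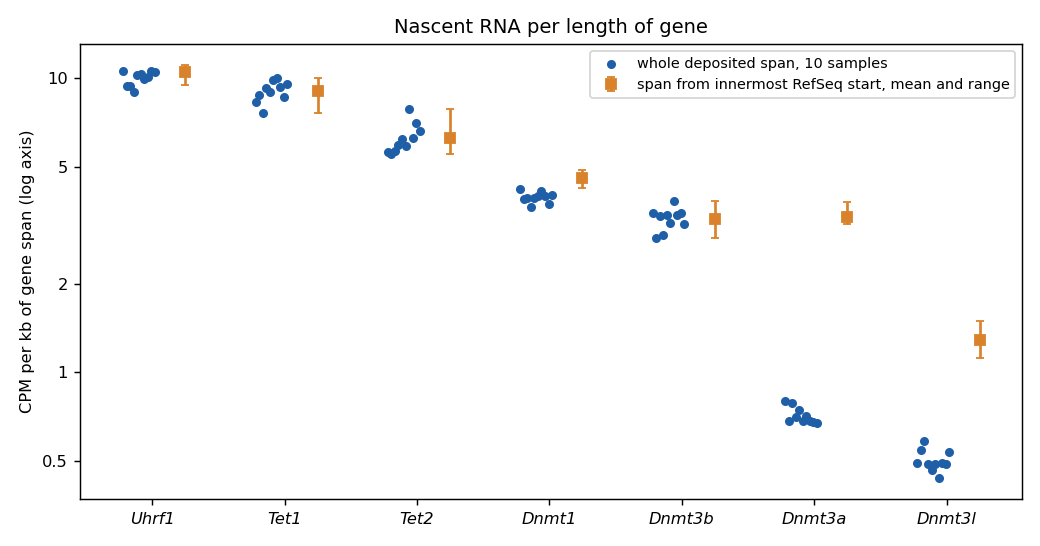
Nascent RNA of each gene as CPM per kb of gene span (log axis). Blue points are the 10 samples over the whole deposited span, and orange squares with bars are the mean and range over the span from the innermost RefSeq start. Uhrf1 and Tet1 lead and Dnmt3l is lowest on both measures, while Dnmt3a moves from 0.715 to 3.38 CPM per kb.

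For the maintenance genes, levels at all times stayed near those at 0 h. Where the 5 values of a replicate are given, here and further on, they follow the order 0, 4, 8, 12 and 24 h. Dnmt1 (chr9:20907206-20959888, minus strand), which copies methylation onto new DNA, had 222, 206, 206, 218 and 197 CPM in replicate 1 and 204, 192, 209, 210 and 210 CPM in replicate 2. Its coefficient of variation over the 10 samples was 4.24%. The 24 h samples differed from those at 0 h by -0.06 log2 units (SE 0.073, 95% interval -0.22 to 0.09), smaller than the spread between replicates.

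Uhrf1 (chr17:56303337-56323486, plus strand), which guides DNMT1 to replicated DNA, had 213, 189, 207, 200 and 213 CPM in replicate 1 and 189, 181, 208, 203 and 212 CPM in replicate 2. The 4 h samples were the lowest, with a log2 change of -0.12 (SE 0.072, adjusted p = 1.0). At 24 h the change was 0.08 (95% interval -0.08 to 0.23), and both 24 h values lay within the range of the 0 h samples.

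Among the de novo genes, Dnmt3a had 86.0, 84.6, 79.8, 76.3 and 72.9 CPM in replicate 1 and 73.6, 75.9, 73.7, 73.3 and 72.2 CPM in replicate 2. Both 24 h samples were below every earlier sample. The slope over hours was -0.15 log2 units per 24 h (SE 0.076, adjusted p = 0.41), which did not pass the test. Its antisense neighbour Dnmt3aos had at most 2 read pairs in any sample.

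Dnmt3b (chr2:153649449-153687730, plus strand), the other de novo enzyme, had 134, 130, 131, 147 and 134 CPM in replicate 1 and 109, 112, 123, 131 and 122 CPM in replicate 2. Replicate 1 was the higher sample at all 5 times, as it was for Dnmt3a. The 12 h change was 0.19 (SE 0.10, 95% interval -0.02 to 0.41, adjusted p = 0.48), which did not pass the test.

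Dnmt3l (chr10:78042287-78063622, plus strand), the cofactor of the de novo enzymes, had the fewest reads, 190 to 256 per sample. It had 10.5, 12.5, 9.98, 9.32 and 10.4 CPM in replicate 1 and 11.7, 10.4, 10.4, 10.5 and 11.5 CPM in replicate 2. At this depth the 24 h interval ran from -0.31 to 0.27 log2 units around -0.02. Aire, an antisense gene that overlaps its end by 1324 bases, had 41 to 116 read pairs, which strand-aware counting kept apart.

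Of the TET genes, Tet1 (chr10:62804570-62880014, minus strand) gave the most reads of the 7, 11002 to 16055 per sample. It had 628, 574, 678, 753 and 651 CPM in replicate 1 and 661, 697, 742, 702 and 720 CPM in replicate 2. Both samples at 8 h and at 12 h were above both at 0 h, but the changes of 0.14 (SE 0.093) and 0.18 (SE 0.093, adjusted p = 0.49) did not pass the test. At 24 h replicate 1 was back within the 0 h range.

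Tet2 (chr3:133463677-133544390, minus strand) moved the most. It had 453, 455, 499, 631 and 568 CPM in replicate 1 and 444, 480, 476, 505 and 534 CPM in replicate 2. Every DOX sample was above both 0 h samples, and 12 h replicate 1 was the highest of all. The log2 change was 0.34 at 12 h (SE 0.091, 1.27-fold, 95% interval 1.11 to 1.45) and 0.30 at 24 h (SE 0.091, 1.23-fold, 1.07 to 1.41). In the fit without a replicate term these did not pass after adjustment over all genes (the 12 h change had an unadjusted p of 0.002 and an adjusted p of 0.119, and the 24 h change an adjusted p of 0.163).

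Same-numbered samples deviated together across genes, so a fit with the replicate number as a block stands beside the first. In it Tet2 rose by 0.34 log2 units at 12 h (SE 0.073, adjusted p = 0.0032) and by 0.29 at 24 h (SE 0.073, adjusted p = 0.0089), with a slope of 0.32 per 24 h (SE 0.082, adjusted p = 0.0139). The test of any difference among the 5 times gave an adjusted p of 0.00314 for Tet2. At 4 and 8 h the blocked fit called 0 of the 7 genes, beside 0.0344% and 0.744% of all genes. At these times 0 of the 7 had an unadjusted p under 0.05. That count was 3 at 12 h and for any difference (Dnmt3b, Tet1 and Tet2), beside 19.2% and 18.4% of all genes. It was 1, Tet2, at 24 h (16.1% of all genes) and 2, Dnmt3a and Tet2, for the slope (16.6%). At 12 h Dnmt3b changed by 0.20 (SE 0.068, adjusted p = 0.090) and Tet1 by 0.18 (SE 0.073, adjusted p = 0.163), neither past the test. The blocked edgeR fit called 4.94% of all genes at 12 h, 5.32% at 24 h, 5.67% for the slope and 6.12% for any difference, and Tet2 was the 1 gene of the 7 called in each. With each sample left out in turn, the blocked slope and the blocked test of any difference passed in 10 of 10 fits. The blocked 12 h call was lost without 0 h replicate 1 or without 12 h replicate 1 (adjusted p up to 0.348), and the 24 h call was lost in 3 of 10 fits, without 0 h replicate 1, 24 h replicate 1 or 24 h replicate 2 (up to 0.117). Without 12 h replicate 1 the unblocked 12 h change was 0.17 instead of 0.34.

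Tet3, the remaining TET gene and no member of the 7, is given for comparison. It had 58.0, 58.7, 56.6, 51.4 and 40.6 CPM in replicate 1 and 42.7, 47.0, 43.7, 39.4 and 38.8 CPM in replicate 2. Replicate 1 was higher at every time. The 24 h change was -0.34 (SE 0.16, adjusted p = 0.49) without the block, and with it -0.32 (SE 0.082, adjusted p = 0.0106), a call that was lost without 0 h replicate 1 or 24 h replicate 1 (adjusted p up to 0.572). The blocked slope of Tet3 was -0.38 per 24 h (SE 0.083, adjusted p = 0.0029). With each sample left out in turn that slope ran from -0.51 to -0.25, and its call was lost without 24 h replicate 1. The blocked test of any difference gave Tet3 an adjusted p of 0.0059, a call also lost without 24 h replicate 1. Per length of gene Tet3 ran from 0.413 to 0.625 CPM per kb, below every Tet1 and Tet2 value.

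**Figure D2:**
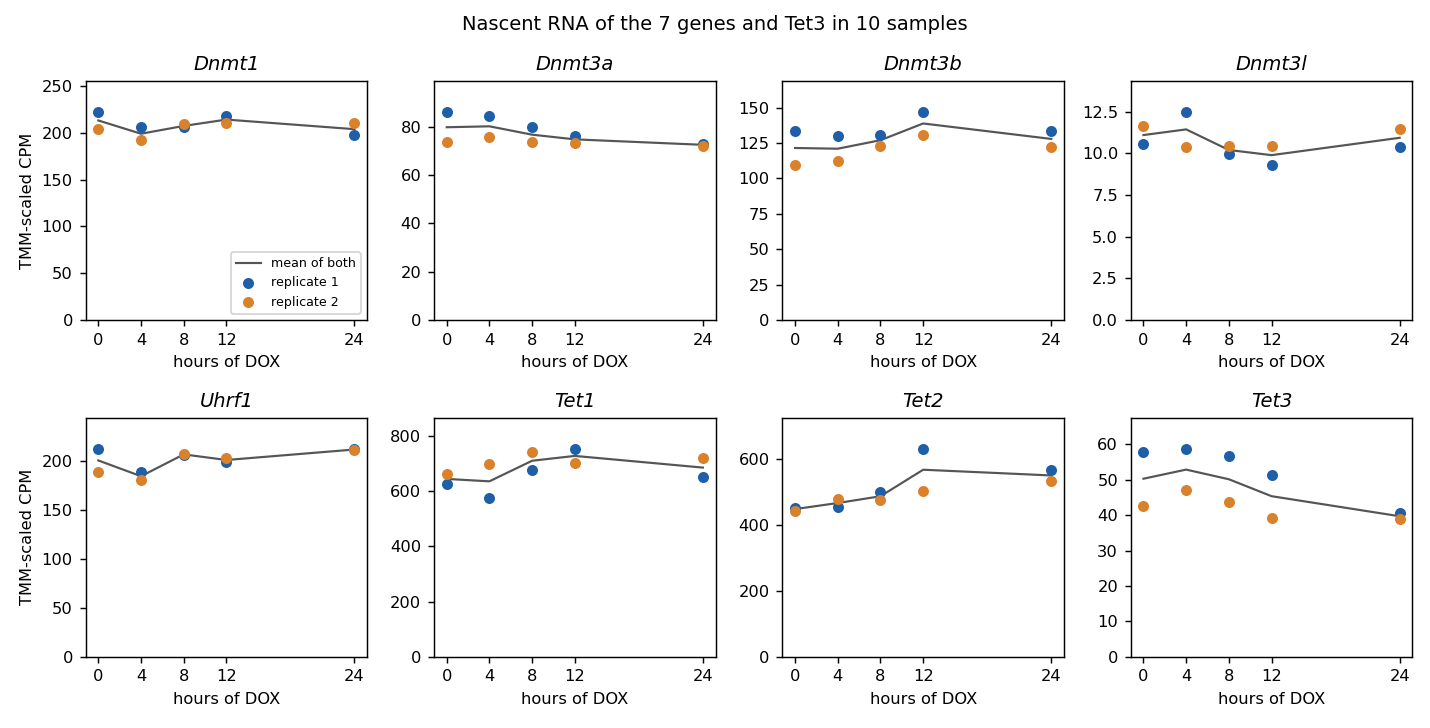
TMM-scaled CPM (vertical axis, from 0) against hours of DOX for the 7 genes and Tet3. Points are the 10 samples coloured by replicate number and lines join the means of both. Tet2 lies at 444 to 453 CPM at 0 h and 505 to 631 CPM at 12 h, and replicate 1 is higher than replicate 2 at all 5 times for Dnmt3a, Dnmt3b and Tet3.

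Across the comparisons of total counts in the fit without a block, edgeR called 0 of the 7 genes at 4 h, where 0.0138% of 14525 tested genes were called. It called 0 of 7 at 8 h (0.193% of all genes), 0 at 12 h (0.95%), 0 at 24 h (1.85%), 0 for any difference (1.25%) and 0 for the slope over hours (3.15%). At an unadjusted p under 0.05 the count was 0 at 4 and 8 h. It was 1 at 12 h, at 24 h, for any difference and for the slope, Tet2 each time. Of all tested genes 2.09% and 4.06% reached that level at 4 and 8 h, 11.5% at 12 h and 10.3% at 24 h. The shares were 8.45% for any difference and 13.2% for the slope. DESeq2 called 0 of 7 at 4, 8 and 24 h. It called 1, Tet2, at 12 h (adjusted p = 0.0287), for any difference (0.0341) and for the slope (0.0358). Of all genes it called 3, 45, 176 and 276 at 4, 8, 12 and 24 h. For any difference it called 268 genes and for the slope 523. At 24 h the other 6 genes had changes between -0.14 and 0.09 log2 units, and their 95% intervals all lay between -0.33 and 0.29. The median change of the 7 at 24 h was 0.07, beside 0.01 over all tested genes. Counts carry no scaling to spike-in RNA, so each change is relative to all labelled RNA of the sample, and in a bulk sample fewer cells transcribing a gene and less RNA per cell cannot be told apart. The labels do not say that replicates were separate cultures. The paper calls the duplicates averaged in its gene silencing heatmap biological, without saying how they were made. The p-values thus measure the spread between these samples, part of which may be technical.

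**Figure D3:**
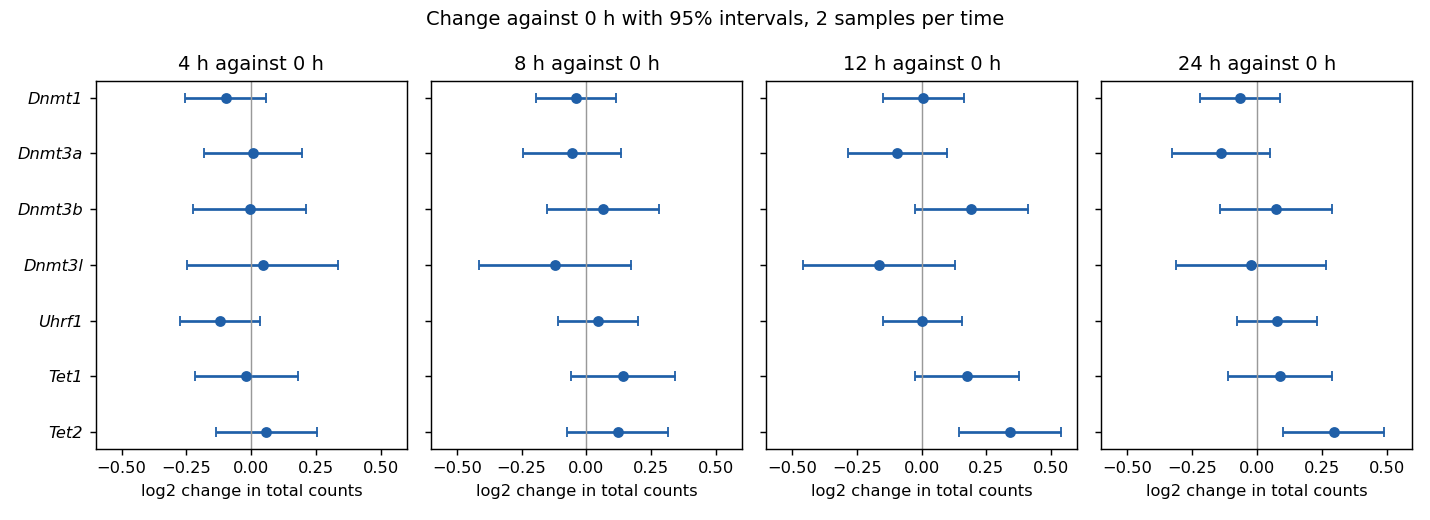
Log2 change in total counts against 0 h at 4, 8, 12 and 24 h, with 95% intervals from the fit to all 10 samples without a replicate block. The Tet2 intervals lie above 0 at 12 h (0.15 to 0.54) and at 24 h (0.10 to 0.49), before adjustment for the number of genes, and the other intervals include 0.

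Reads that carry a strain difference were assigned to an allele, which gives the B6 share, B6 reads over B6 plus Cast reads. All 7 genes are autosomal, so both copies lie outside the X chromosome that carries the induced Xist. Over all autosomal reads the B6 share was 0.518 to 0.521 per sample, and this is the background against which each gene was set. A median of 50.8% to 71.5% of a gene's reads could be assigned, and the depth ran from 112 allelic reads (Dnmt3l) to 9758 (Tet1).

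Dnmt3a was read mostly from the Cast allele. Its B6 share ran 0.355, 0.378, 0.403, 0.421 and 0.381 over the 5 times in replicate 1 and 0.385, 0.412, 0.392, 0.404 and 0.363 in replicate 2, from 791 to 947 allelic reads. The 95% Wilson interval lay below the autosomal share in 10 of 10 samples. Averaged over time the log2 ratio of B6 to Cast reads was -0.77 (SE 0.035, adjusted p = 4e-43) against the autosomal ratio, and 19.5% of 11543 autosomal genes were at least as skewed in either direction.

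Tet1 leaned towards B6. Its share ran 0.596, 0.587, 0.585, 0.581 and 0.566 over the 5 times in replicate 1 and 0.578, 0.583, 0.590, 0.580 and 0.571 in replicate 2, above the autosomal share in 10 of 10 samples. The averaged log2 ratio was 0.36 (SE 0.014, adjusted p = 3e-50), and 39.4% of autosomal genes were at least as skewed. Dnmt3l had an averaged ratio of 0.34 (SE 0.085, adjusted p = 0.00024) on far fewer reads, with shares from 0.531 to 0.647 and Wilson intervals above the autosomal share in 2 of 10 samples.

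The other genes were close to the autosomal ratio. Uhrf1 shares ran from 0.478 to 0.504, with an averaged log2 ratio of -0.18 (SE 0.022) and Wilson intervals below the autosomal share in 9 of 10 samples. Dnmt1 shares ran from 0.519 to 0.541 (ratio 0.06, SE 0.019), Tet2 shares from 0.495 to 0.521 (-0.08, SE 0.015) and Dnmt3b shares from 0.506 to 0.545 (0.01, SE 0.027, adjusted p = 0.74). Against equal reads from both alleles in place of the autosomal ratio, Tet2 changed side (0.04, SE 0.015, adjusted p = 0.019). A total of 6 of 7 genes passed the averaged test, beside 71.3% of all 11906 tested genes, so their count is near the background.

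**Figure D4:**
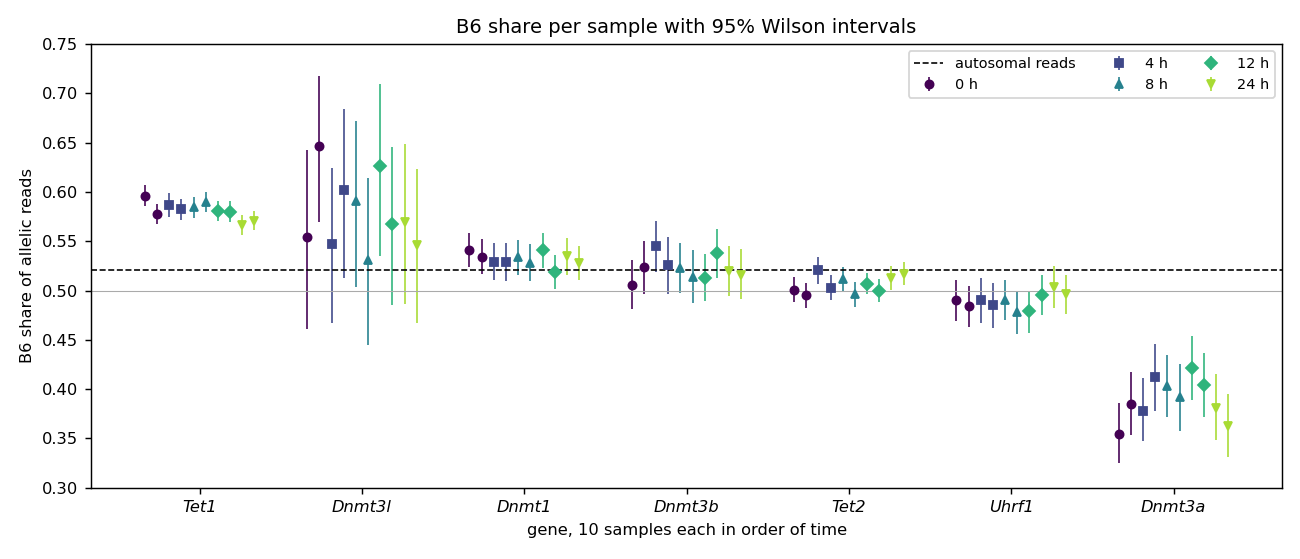
B6 share of allelic reads for each gene in the 10 samples, ordered by time from left to right, with 95% Wilson intervals that cover counting error only. The dashed line is the mean autosomal share. Dnmt3a lies at 0.355 to 0.421 and Tet1 at 0.566 to 0.596 in every sample, and the wide intervals of Dnmt3l come with 112 to 156 reads per sample.

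The allelic balance of these genes was then compared between times. Of the 7, edgeR called 0 at 4 h (0.361% of 11906 genes called), 0 at 8 h (1.67%), 0 at 12 h (2.16%) and 0 at 24 h (2.63%), and DESeq2 called 0 at each time. At an unadjusted p under 0.05 there was 1 gene at 12 h, Dnmt3a (a change of 0.26, SE 0.11, adjusted p = 0.47). Of all tested genes 7.39% reached that level. At 24 h there was again 1, Tet1 (-0.12, SE 0.043, adjusted p = 0.24), beside 8.05% of all genes. With the block Tet1 had -0.11 at 24 h (SE 0.037, adjusted p = 0.064) and Tet2 0.09 (SE 0.041, adjusted p = 0.42), neither called. Both 24 h shares of Tet1 were below all 8 earlier ones, and its change passed without 0 h replicate 2 (adjusted p = 0.0388) but in none of the other 15 alternatives.

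For Tet2 the allelic ratio moved by 0.03 log2 units at 12 h (SE 0.047, adjusted p = 0.98). By 24 h it had moved by 0.09 (SE 0.047, 95% interval -0.00 to 0.18, adjusted p = 0.63). Expressed as CPM of the autosomal reads of the same allele, B6 reads of Tet2 went from 547 and 505 at 0 h to 710 and 573 at 12 h, and were 674 and 635 at 24 h. Cast reads went from 588 and 560 to 749 and 624 and then 697 and 645. On either allele both 12 h and both 24 h samples were above both 0 h samples. These reads are part of the total counts given above, so they are no separate evidence of the rise. The share of all genes with such an order was not counted. The log2 change at 24 h was 0.32 on the B6 allele and 0.23 on the Cast allele.

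Genes that work with these enzymes were taken from 7 lists with 62 genes, of which 58 passed the filter on low counts. In the edgeR fit without a block 0 of the 58 were called at 4, 8, 12 or 24 h, for any difference or for the slope, and 5 had an unadjusted p under 0.05 at 24 h. Of all tested genes 10.3% had such a p at 24 h in that fit. With the block 0 were called at 4 and 8 h, 4 at 12 h and 6 at 24 h. For any difference 5 were called and for the slope 6. The blocked shares of all genes were 4.94% at 12 h, 5.32% at 24 h, 6.12% for any difference and 5.67% for the slope.

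The maintenance partners (Uhrf2, Usp7, Hells, Cdca7, Pcna, Lig1 and Dppa3) had a median change of -0.01 at 24 h, beside 0.01 over all genes, and 0 of 7 were called. With the block 1 was called, Uhrf2, a relative of Uhrf1, which fell by 0.25 (SE 0.067, adjusted p = 0.0195) to 204 and 248 CPM from 241 and 295. The 8 guides of de novo methylation, among them Setdb1, Trim28 and Zfp57 of the repeat and imprint silencing machinery, had a median of 0.01 and 0 called with or without the block. The 8 genes of methyl donor supply, such as Mat2a, which makes S-adenosylmethionine, had a median of -0.02 and 0 called in either fit.

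In the list of oxidation and base excision genes, 14 of 16 were tested, 0 were called at 24 h and the median was -0.08. With the block 2 fell, Tet3 and Ogt, the latter an X-linked glycosyltransferase that binds TET proteins (-0.22, SE 0.066, adjusted p = 0.0412). Of the 7 methyl-CpG readers, with a median of -0.14, the block called the X-linked Zbtb33 lower (-0.49, adjusted p = 0.0346) and Zbtb4 higher (0.63, adjusted p = 0.0359). Zbtb38 of that list was called lower by the block at 12 h (-0.30, adjusted p = 0.0074), but not at 24 h (-0.11). Among 5 tested regulators of the enzymes, the block called Dusp9, an X-linked phosphatase that restrains ERK signalling (-0.67, SE 0.13, adjusted p = 0.0004). In that list Nanog (-0.00), Esrrb (-0.00) and Prdm14 (0.01), a repressor of Dnmt3b, had changes near 0. The 9 tested germline genes that promoter methylation normally keeps off had a median of -0.06 and 0 called at 24 h in either fit. At 12 h the block called Ddx4 (0.53, adjusted p = 0.0303) and Stk31 (0.37, adjusted p = 0.0025) of that list higher. At 24 h their changes were 0.23 and 0.05, not called. For any difference the block called Stk31 (adjusted p = 0.0077) and Sycp1 (adjusted p = 0.024). Sycp1 had changes of 0.25 at 12 h and -0.30 at 24 h, neither called. Genes that the block alone called were chosen for naming after their values were seen.

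By allele, 1 of 54 listed genes with enough allelic reads was called at 8, 12 and 24 h. Of all tested genes 1.67%, 2.16% and 2.63% were called at these times. The listed gene was the X-linked Ogt, lower in B6 share each time. With the block Ogt was called at 4 h too (-0.23, SE 0.058, adjusted p = 0.0191). Its B6 share went from 0.500 and 0.501 at 0 h to 0.370 and 0.363 at 24 h. The allelic ratio of Ogt stood at -0.57 log2 units (SE 0.061) against 0 h after 8 h of DOX. The 24 h value was -0.80 (SE 0.062, adjusted p = 4.3e-22). All 4 X-linked genes tested in the lists had total counts below their 0 h level at 24 h. Of these, Taf7l (-0.81, SE 0.48) was not called in either fit. The share of all X-linked genes that were lower was not counted.

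**Figure D5:**
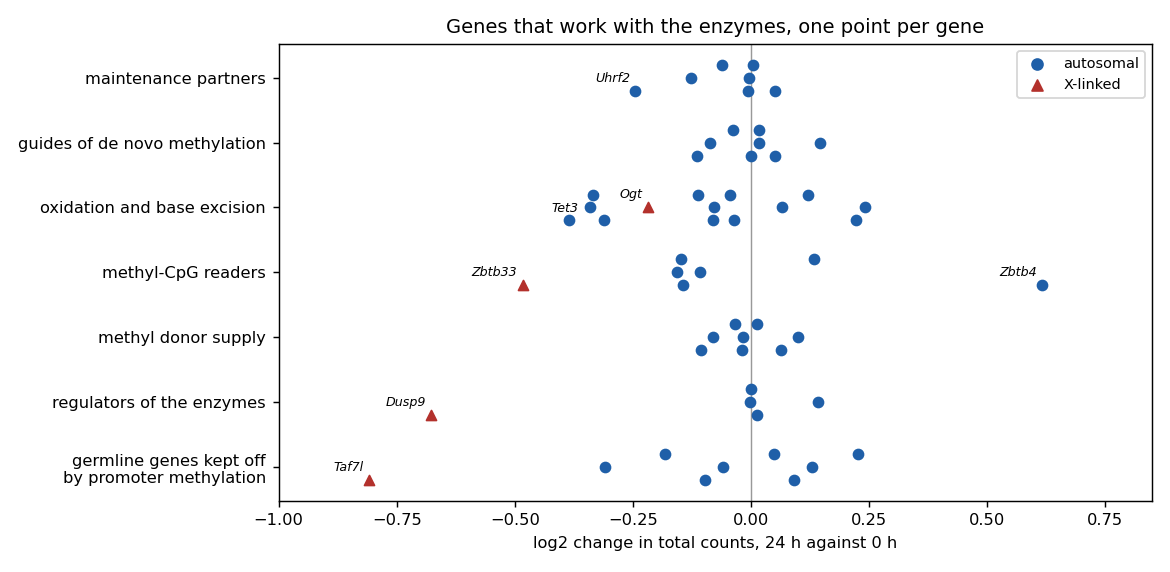
Log2 change in total counts at 24 h against 0 h (horizontal axis) for the 58 tested genes of the 7 lists, 1 point per gene, from the fit without a block. Red triangles are the 4 X-linked genes, all below 0, and no point passed the adjusted test in this fit. The vertical offset within a list has no meaning.

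By likeness of pattern, measured as Pearson's r of log2 CPM over the 10 samples, the closest genes to Tet2 were Zc3hav1 (0.97) and Klhl32 (0.96), and to Tet1 Usp8 (0.98) and 1700112E06Rik (0.96). They were Sirpa (0.97) and Pef1 (0.96) for Dnmt3a, Gm15698 and Adap1 (0.95 each) for Dnmt3b, and Pisd-ps2 (0.92) and Selenop (0.87) for Dnmt3l. For Dnmt1 they were Ap3d1 (0.95) and Ap2s1 (0.92), and for Uhrf1 Def8 (0.95) and Thoc5 (0.91). Among the 7 themselves r ran from -0.67 (Dnmt3a with Tet1) to 0.63 (Dnmt3b with Tet2). The 10 points share times and replicate numbers, and these values are the highest of all tested genes for each member, so they are a description.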

How the data were processed

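TT-seq was measured in 10 TX1072 samples, 2 per time, with groups taken from the labels. Reads had been trimmed by the authors (Cutadapt). They then aligned the reads with STAR to the mm10 genome masked at strain differences, kept unique proper pairs, split them by allele with SNPSplit and counted them by strand with featureCounts 1.5.1 over the longest refFlat span of each gene. The deposited tables hold raw counts of all, B6 and Cast read pairs, and a fraction, the B6 count over the allelic count, which matched the counts. The step that would remove duplicates is not given in the sources used here. Read pairs carry no molecular identifiers. The Wilson intervals of the shares cover counting error only, whereas the intervals of log2 changes include the spread between samples.

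Total counts were tested with edgeR 4.0.16 (R 4.3.3, filterByExpr, TMM, quasi-likelihood, time as a factor, all 10 samples) and by a slope on hours. The ratio of B6 to Cast counts was tested on 20 columns with an intercept per sample, in genes whose allelic reads reached 10 in each sample. Tests were two-sided, and genes with a Benjamini-Hochberg adjusted p under 0.05 over all tested genes were called. The scripts were tested on simulated data. Same-numbered samples deviated together in log2 CPM in all 10 pairs of times (r 0.14 to 0.28), and only weakly in the allelic ratio (r 0.02 to 0.06). Blocked values are therefore given for total counts where they change a call, and for a few allelic ratios. Alternatives were DESeq2 1.42.0, other scalings, filters, the block and leaving out each sample. Rule for named genes: the 7 in every comparison, Xist, Tet3, up to 3 called genes per list, and the 2 genes closest to each member. A gene of the lists is not reported here and was left out of their counts. The members and lists were chosen with earlier results of these data known. Python 3.11.15 was used for values and figures.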

Additional observations from a re-analysis of the deposited data

How the results depend on the processing

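The averaged allelic tests aside, 4 results for Tet2 and 1 for Tet1 passed under some alternative and not in the fits as reported, and Tet2 kept its positive sign in every alternative for total counts. The count of the 7 genes called rose from 0 to 1, Tet2, with DESeq2 (12 h, any difference, slope), without a filter on low counts (12 h, 24 h, any difference, slope), with library size alone (slope) and with the replicate block (12 h, 24 h, any difference, slope). Leaving out 1 sample gave 0 to 1 of the 7 for 12 h, any difference, slope and the 24 h allelic ratio. With p-values adjusted over autosomal genes alone the calls were 1, 0, 1 and 16 at 4, 8, 12 and 24 h, 12 for any difference and 126 for the slope, and for the allelic ratio 0, 0, 2 and 5, since X-linked genes were left out. DESeq2 called 45 genes at 8 h, 11 and 125 for the allelic ratio at 4 and 8 h, and 863 between replicates. Without a filter 53, 266 and 385 genes were called at 8 h, 12 h and for any difference. With the replicate block total counts gave 5, 108, 718, 773, 889 and 824 calls (4, 8, 12, 24 h, any difference, slope), and beside Tet2 and the listed genes named with it the block changed no other call among the 7. Leaving out 1 sample gave 1 to 2 calls at 4 h, 5 (without 8 h replicate 2) to 29 at 8 h, 53 (without 12 h replicate 1) to 222 at 12 h, 131 (without 24 h replicate 2) to 268 at 24 h and 117 (without 24 h replicate 1) to 179 for any difference. It gave 300 (without 24 h replicate 2) to 450 for the slope, 847 (without 0 h replicate 1) to 1643 between replicates, with 1 to 2 of the 7, and 24 (without 0 h replicate 1) to 44 for the allelic ratio at 4 h. Of the 7, Tet2 passed at 12 h (0.48 log2 units) and for any difference without 12 h replicate 2, and its slope without 12 h replicate 1. Leaving out samples was not run for the listed partner genes other than Tet3. With equal library sizes for both alleles the averaged Tet2 ratio changed sign to 0.0375 and Dnmt3b passed. Other causes were not tested. Of 1232 alternative values for the 7 genes 65 changed sign, and apart from that Tet2 ratio these were uncalled values. Depth limits Dnmt3l most, with 112 to 156 allelic reads.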

Other observations

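The replicate number was tested as a term after it was seen to pair the samples, and 11.7% of all tested genes were called between replicate 1 and replicate 2. Of the 7 genes 1 was called, Dnmt3b, with log2 0.18 (SE 0.043, adjusted p = 0.0057) higher in replicate 1, and it passed in 15 of 15 alternatives. Dnmt3a was higher in replicate 1 by 0.11 (SE 0.046, adjusted p = 0.098) and Tet1 differed by -0.11 (SE 0.046, adjusted p = 0.14), neither past the test. Tet3 was higher in replicate 1 by 0.32 (SE 0.052, adjusted p = 3.7e-05). Xist was higher in replicate 1 by 0.35 (SE 0.048). Of the 58 tested partner genes 10 were called between replicates. Uhrf2 was lower in replicate 1 at all 5 times. What the number stands for is not given in the labels.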
